A study of Homo sapiens with 6 samples.

Results

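The genes described here are the transcriptional regulators of the MHC class II promoters: CIITA, the RFX subunits RFX5, RFXAP and RFXANK, the NF-Y subunits NFYA, NFYB and NFYC, and CREB1. All probe sets whose platform gene symbol was one of these 8 genes were taken, which gave 31 of the 49293 probe sets and 8 of the 18239 genes measured. Expression was measured on 6 Affymetrix arrays in MV4;11 cells, an established human leukemia line in which the MLL gene (KMT2A) is fused to AFF1. In one group, 3 samples received 4 µM MI-389, an inhibitor of the binding of menin to MLL, for 6 days. In the other, 3 samples received the solvent DMSO for the same time. DMSO stood at 0.25% in both groups, and medium and compound were renewed once. The samples of a group are called biological replicates, but nothing says whether they came from separate cultures, and the p-values may then rest in part on technical spread. All 6 samples are of the same line, and none was left without DMSO.

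MHC class II molecules present peptides from the endosomal route to CD4 T cells. Their promoters share a compact module, in which the X box is bound by the RFX complex and by CREB family proteins and the Y box by the NF-Y trimer. These DNA-bound factors are present in most cell types. CIITA binds no DNA itself but docks on them and recruits coactivators, and its own level is known to set where and when class II genes are read. It is made at rest in B cells and dendritic cells and induced by interferon gamma in many others. RFX5 contacts the X box, while RFXAP and RFXANK hold the complex together, and loss of CIITA or of any RFX subunit causes bare lymphocyte syndrome.

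The sequences that these factors read are shown for 5 class II genes with measured values, 60 bases each, taken from the RefSeq promoter table of GRCh38.p14 on the strand of the gene. Capitals mark the Y box core ATTGG, the reverse of CCAAT, and, where present, the letters CTGATGATG at the border of the X1 and X2 boxes.
HLA-DRB1, chr6:32589880-32589939, minus strand: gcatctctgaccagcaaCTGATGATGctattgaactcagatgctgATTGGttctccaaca
HLA-DMA, chr6:32953162-32953221, minus strand: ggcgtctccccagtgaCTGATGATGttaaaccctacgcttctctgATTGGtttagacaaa
HLA-DOB, chr6:32817086-32817145, minus strand: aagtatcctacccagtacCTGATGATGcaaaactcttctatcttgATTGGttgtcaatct
HLA-DPB1, chr6:33075846-33075905, plus strand: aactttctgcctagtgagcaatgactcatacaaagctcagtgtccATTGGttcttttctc
HLA-DQA1, chr6:32637293-32637352, plus strand: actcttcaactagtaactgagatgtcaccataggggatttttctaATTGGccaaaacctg
All 5 stretches lie upstream of the annotated start. The first base of ATTGG stood at -46 from the start in HLA-DRB1, at -79 in HLA-DMA, at -98 in HLA-DOB, at -99 in HLA-DPB1 and at -68 in HLA-DQA1. In the 3 stretches that hold both sets of capitals, 18 to 20 bases lay between them, namely 19 in HLA-DRB1, 20 in HLA-DMA and 18 in HLA-DOB.

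CCAAT, on either strand, was found in the 250 bases before the start in 12 of 14 windows of 13 class II genes (85.7%). Of all 35116 windows in the table, 32% held it. The letters TGACG, a CRE half-site that CREB1 reads, or their reverse CGTCA were found in 5 of the 14 windows (35.7%) and in 21.2% of all windows. CTGATGATG or its reverse CATCATCAG was found in 4 of the 14 (28.6%), those of HLA-DRB1, HLA-DMA, HLA-DMB and HLA-DOB, and in 0.222% of all windows. These letters were chosen after the class II sequences had been read, and the class II genes are copies of one another, so their windows are not independent. No match overlapped a match of another motif in the windows of the class II genes or the regulators. The letters are a description of the sequence and no measurement of binding.

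Of the regulators, 6 of 8 had a window in that table, with 12 starts in all. CCAAT was present in 4 of the 12 (33.3%, against 32% of all windows), all of RFX5 or NFYC. In RFX5 it stood at -177 and -95 from 1 of its starts. CRE half-sites lay before starts of RFX5, RFXAP and NFYC. None of the 12 windows held CTGATGATG.

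Pearson correlations across probe sets, which are not independent replicates, were 0.997 to 0.998 within a group and 0.979 to 0.981 between groups. Values are log2, and a guide to background is 5.49, the highest value of the nonspecific control probe sets when the one of highest GC content is left out. With that control kept the highest value was 7.87, above every NFYA, NFYB and NFYC set, so the labels of background depend on leaving it out. Hybridisation spike-ins were 0.252 higher on the MI-389 arrays, and centring on them moved the median change of all genes from 0.02 to -0.23. The centring lowers every change by that same 0.252. With it 1397 of the 18239 genes were higher and 11056 lower, and counts under the centring stand beside those. Each change below is that of the values as deposited, and for the regulators, their probe sets and the genes named from the pathway lists, calls that the centring ends, turns or adds are given. Marker lists of this and other cell types were read beside the regulators. Of 9 myeloid markers 7 rose and FCGR1A fell, and their summed linear level went from 5030 to 5080 with DMSO to 12700 to 12900 with MI-389. Most weight in that sum falls on the brightest gene, LYZ (11.07 with DMSO, 13.13 with MI-389). The median log2 change of the list was 0.72. LYZ, CEBPA and CD68 were above 5.49 in both groups, while MPO and CD14 were under it. Of 6 B cell markers 0 rose and CD79A fell, 5 had both groups under 5.49, and the summed level was 210 to 217 and 209 to 215. The B cell factor PAX5 was the exception, at 6.66 with DMSO and 6.75 with MI-389 (change 0.09, SE 0.05, not called). It weighs most in that summed level. Of 10 dendritic cell markers 1 rose and 2 fell, BATF3 and CLEC10A, 8 had both groups under 5.49, and the summed level went from 238 to 253 to 177 to 192. BATF3 and CLEC10A were the brightest of the list and weigh most in that sum. The median change of the list was 0.02. Of 4 T cell markers 1 rose, all 4 had both groups under 5.49, and the summed level was 61.7 to 64.6 and 67.2 to 71.3. In a bulk sample, fewer cells of a type and less RNA per cell cannot be told apart. With the centring 5 of the B cell markers and 8 of the dendritic cell markers were lower, and 6 myeloid markers were higher and 2 lower. The part of any shift in cell state in the changes below was not tested.

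The regulators changed in both directions, by -0.80 to 0.70 on the log2 scale over their 31 probe sets. With 1 probe set per gene, the brightest, CREB1 rose and RFXANK, RFXAP and NFYC fell, and the other 4 did not pass an adjusted p of 0.05 (limma, adjusted over all genes). Over all genes 34.1% passed, 18.4% higher and 15.7% lower, and the count of 4 in 8 is to be read against that share. The groups did not overlap for 6 of the 8 genes, against 45.3% of all genes. Both group means were under 5.49 for 9311 of all 18239 genes and for 1 of the 8, so these shares are not those of genes of like level. The median change of the 8 was -0.14, beside 0.018 over all genes, and their range was -0.70 to 0.53. At the level of probe sets, 7 of the 31 rose, 10 fell and 14 were not called, against 14% higher and 14% lower (28% in all) among all probe sets. The groups did not overlap in 20 of the 31, against 40.4% of all probe sets.

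**Figure D1:**
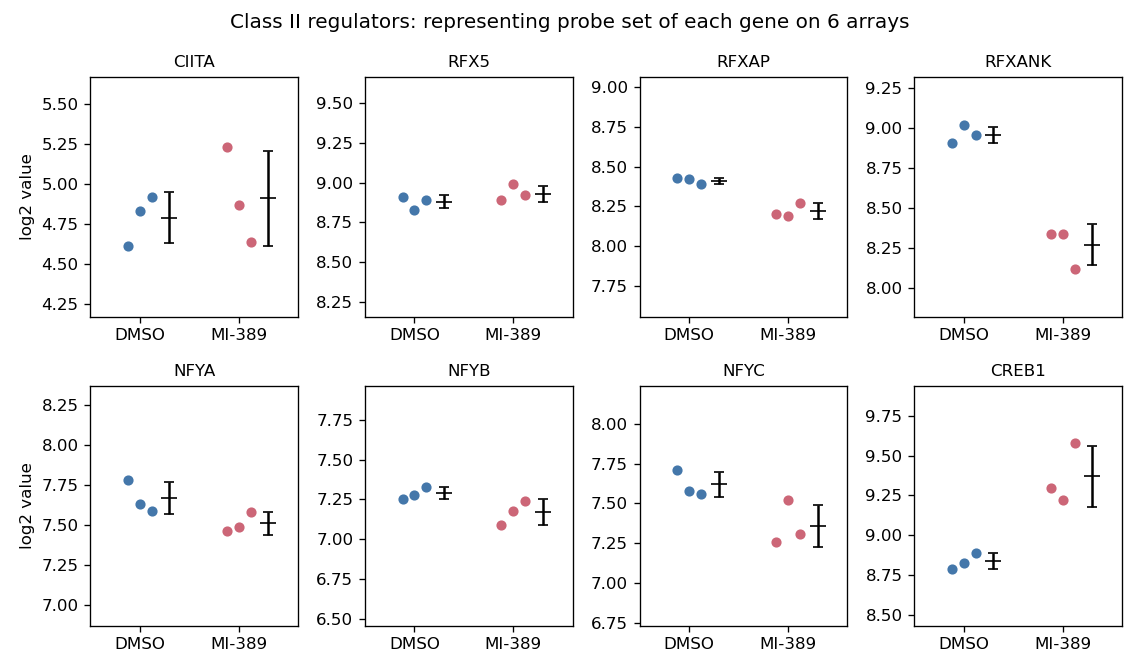
Log2 value of the representing probe set of each regulator on the 3 DMSO arrays (blue) and the 3 MI-389 arrays (red), with mean and SD in black beside them; each panel spans 1.5 log2 units. RFXANK, RFXAP and NFYC lie lower and CREB1 higher with MI-389, while the groups of CIITA and RFX5 overlap.

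CIITA, the coactivator that commits a cell to class II expression, was dim. All 4 of its probe sets had both group means under 5.49. Its brightest probe set read 4.61, 4.83 and 4.92 on the DMSO arrays and 5.23, 4.87 and 4.64 on the MI-389 arrays. The groups overlapped, and MI-389 replicates 1 and 3 lay at opposite ends. The change was 0.13 (95% interval -0.18 to 0.43, adjusted p = 0.543), an interval that reaches from a small fall to a rise of 0.43.

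Another CIITA probe set, 11743900_at, gave 3.74, 3.73 and 3.89 with DMSO and 4.21, 4.18 and 4.50 with MI-389. All 3 treated arrays lay above all 3 controls, and the highest was MI-389 replicate 3. It rose by 0.51 (SE 0.09, adjusted p = 0.00166 over all probe sets), by 0.26 with spike-in centring (adjusted p = 0.0316), and by 0.41 to 0.57 when single arrays were left out. The remaining CIITA probe sets changed by 0.08 (SE 0.08) for 11752297_x_at and by -0.01 (SE 0.06) for 11760716_at, and neither was called. With spike-in centring 11760716_at was lower (-0.26, adjusted p = 0.0091). Which CIITA transcripts, started from its separate promoters, each probe set reads was not analysed here. How a log2 difference at such dim levels relates to a change in transcript amount was not tested.

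RFX5, the subunit that recognises the X box, was read by 3 probe sets, all with both groups above 5.49. The brightest gave 8.91, 8.83 and 8.89 with DMSO and 8.89, 8.99 and 8.92 with MI-389. These values overlapped, and the difference was 0.06 (95% interval -0.07 to 0.18, adjusted p = 0.517). Spike-in centring turned it to -0.20 (adjusted p = 0.0425). Probe set 11725093_a_at stood apart, with 6.74, 6.70 and 6.75 against 7.12, 7.08 and 7.04. The 3 treated values all lay above the controls, and the rise was 0.35 (SE 0.06, adjusted p = 9e-04), or 0.09 and not called with spike-in centring (adjusted p = 0.276). The last RFX5 probe set changed by 0.10 (SE 0.08) and was not called.

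RFXANK, the ankyrin repeat subunit through which RFX meets CIITA, had the largest change of the 8 genes when each was read by its brightest probe set. Its probe set, the only one, read 8.91, 9.02 and 8.96 with DMSO and 8.34, 8.34 and 8.12 with MI-389. No treated array reached the lowest control, and MI-389 replicate 3 was lowest. RFXANK fell by 0.70 on the log2 scale (SE 0.07, adjusted p = 3.61e-05), to 0.617 of the DMSO level. It was called in all 6 fits with 1 array left out, with changes of -0.74 to -0.62.

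RFXAP, the third RFX subunit, gave 8.43, 8.42 and 8.39 with DMSO and 8.20, 8.19 and 8.27 with MI-389, again from a single probe set. The groups were tight and apart, but the step was small. The change was -0.19 (SE 0.05, adjusted p = 0.0192), and with single arrays left out it was called in 2 of 6 fits. Without DMSO replicate 1, DMSO replicate 2, MI-389 replicate 1 or MI-389 replicate 2 the adjusted p was 0.0668, 0.0657, 0.0584 and 0.0579. A further quantile normalisation also ended the call (change -0.14, adjusted p = 0.0697).

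The subunits of RFX were also set against each other within each array, which removes any shift common to the array, spike-in offset included. These pairs were chosen after the members' values had been seen. The log2 difference of RFX5 from RFXANK was 0.00, -0.19 and -0.07 with DMSO and 0.54, 0.65 and 0.80 with MI-389, a change of 0.75. RFXAP against RFXANK changed by 0.51 and RFX5 against RFXAP by 0.25, in both cases with groups that did not overlap. On every treated array RFXANK stood lower relative to both partners than on any control. For each of these 3 the exact two-sided permutation p was 0.1, the smallest that 3 against 3 allows, and 0.2 when adjusted over the 6 pairs compared, so the design cannot reach 0.05. Among the 3 NF-Y pairs all groups overlapped, with changes of -0.04 for NFYA against NFYB, -0.14 for NFYC against NFYB and 0.10 for NFYA against NFYC (exact p = 0.8, 0.3 and 0.4). All these pairs rest on the brightest set of each subunit. Dimmer NFYA and NFYB sets, described below, changed by as much as -0.80 and 0.27, so the contrast between the complexes depends on the probe sets read.

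**Figure D2:**
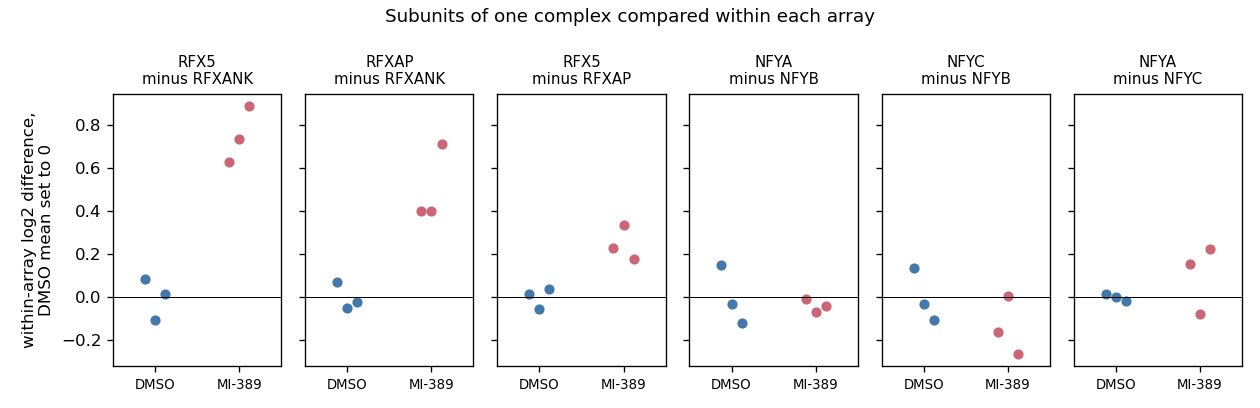
Difference of log2 values between subunits of one complex on each array, shifted so that the DMSO mean is 0, for 3 RFX pairs and 3 NF-Y pairs. The MI-389 arrays (red) lie above the DMSO arrays (blue) in the RFX pairs, by 0.75, 0.51 and 0.25, and overlap with them in the NF-Y pairs.

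NF-Y reads the CCAAT box in a wide range of promoters, of which the Y box is one. NFYB and NFYC form a histone-fold dimer, and NFYA joins it to contact the DNA. NFYC was lower in the most probe sets. Its brightest gave 7.71, 7.58 and 7.56 with DMSO and 7.26, 7.52 and 7.31 with MI-389. The groups did not overlap, although MI-389 replicate 2, at 7.52, came close to the lowest control at 7.56. This set fell by 0.26 (SE 0.08, adjusted p = 0.0273 over all genes), and its gene call was lost without DMSO replicate 1, DMSO replicate 2, MI-389 replicate 1 or MI-389 replicate 3 (adjusted p 0.106, 0.0539, 0.0948 and 0.0792).

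Of the other NFYC probe sets 5 changed more. Probe set 11742120_x_at, the one with the largest change, gave 5.96, 5.88 and 5.71 against 5.23, 5.04 and 5.19. Every treated value lay under 5.49 and every control above it, and the set fell by 0.69 (SE 0.08, adjusted p = 0.000102). In all, 6 of the 7 NFYC probe sets fell, and their median change over the 7 was -0.38. The exception, 11762173_a_at, was at 3.83 in both groups, and lower by 0.25 with spike-in centring (adjusted p = 0.0161). With single arrays left out, 4 of these sets were called in all 6 fits, 11739082_x_at (-0.33) in 3 and the brightest, 11754671_s_at, in 1. Several NFYC probe sets carry the suffix of shared or unspecific sequence and may read the same transcripts, so they are not separate evidence.

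NFYA, the subunit that gives NF-Y its sequence preference, was split between its probe sets. The brightest gave 7.78, 7.63 and 7.59 with DMSO and 7.46, 7.49 and 7.58 with MI-389. These groups nearly touched, and the change of -0.16 was not called (95% interval -0.31 to -0.01, adjusted p = 0.109), except with spike-in centring (-0.41, adjusted p = 0.000865).

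Dimmer NFYA probe sets moved further. Probe set 11725734_a_at gave 5.36, 5.18 and 5.18 against 4.43, 4.60 and 4.29, and fell by 0.80 (SE 0.09, adjusted p = 5.94e-05), though both means were under 5.49. Probe set 11725735_a_at gave 5.79, 5.98 and 5.95 against 5.37, 5.18 and 5.48, and fell by 0.56 (SE 0.09, adjusted p = 0.000612). In both sets the treated arrays lay under all controls. The remaining pair, both under 5.49, changed by -0.02 and 0.06 and was not called, but was called lower with spike-in centring (-0.28 and -0.20).

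NFYB, the partner of NFYC in the dimer, had probe sets with changes of opposite sign. The brightest gave 7.25, 7.28 and 7.33 with DMSO and 7.09, 7.18 and 7.24 with MI-389, a change of -0.12 that was not called (95% interval -0.25 to 0.02, adjusted p = 0.18). With spike-in centring it was -0.37 and called (adjusted p = 0.00108). Probe set 11733067_at gave 7.06, 6.84 and 6.88 against 7.14, 7.26 and 7.19. Its treated arrays were all above the controls, and it rose by 0.27 (SE 0.07, adjusted p = 0.0171). That call was lost without DMSO replicate 2, DMSO replicate 3 or MI-389 replicate 2 (adjusted p 0.0816, 0.0624 and 0.061) and with spike-in centring (0.02, adjusted p = 0.851). The third set changed by 0.01 under background, and by -0.24 with the centring (adjusted p = 0.0231).

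CREB1, a cyclic AMP responsive factor that joins the X2 box and serves a broad set of other promoters, was the member that rose. The brightest of its 7 probe sets gave 8.79, 8.83 and 8.89 with DMSO and 9.30, 9.22 and 9.58 with MI-389. All treated arrays exceeded all controls, with MI-389 replicate 3 highest. CREB1 rose 1.45-fold, by 0.53 (SE 0.09, adjusted p = 0.000933), and by 0.28 with spike-in centring (adjusted p = 0.016). Leaving out single arrays gave 0.42 to 0.61, called in all 6 fits.

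The largest rise among CREB1 probe sets was that of 11736195_a_at, with 7.84, 7.77 and 7.81 against 8.41, 8.45 and 8.65. Its groups were far apart relative to their spread, with a change of 0.70 (SE 0.07, adjusted p = 4.65e-05). Of the 7 sets 4 rose, 0 fell and 3 were not called, with a median of 0.28. The mean of all 7 changed by 0.32. The 3 uncalled sets changed by 0.14, 0.22 and -0.10, the last with both groups under 5.49. With spike-in centring the split was 2 higher and 1 lower. Probe sets 11732304_a_at (0.44 to 0.19, adjusted p = 0.0548) and 11732307_a_at (0.28 to 0.03, adjusted p = 0.749) lost their calls, and 11732305_a_at was called lower (-0.35, adjusted p = 0.00591).

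**Figure D3:**
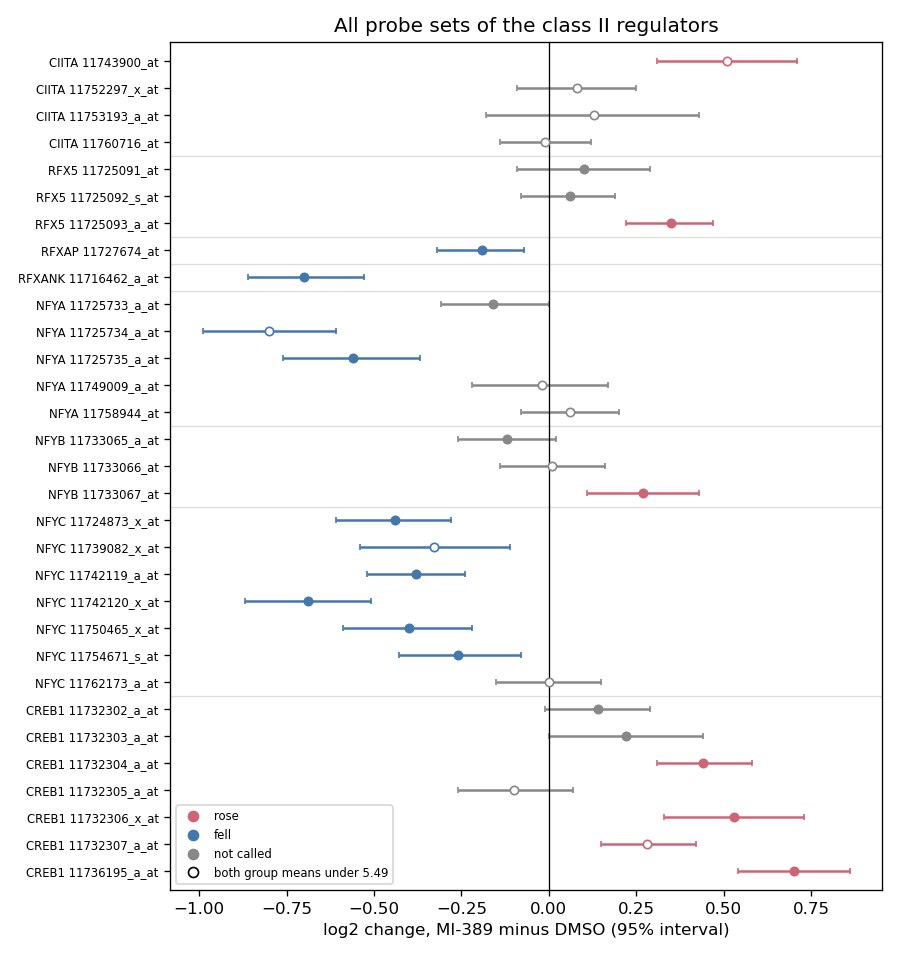
Log2 change, MI-389 minus DMSO, with its 95% interval for each of the 31 probe sets of the regulators, n = 3 arrays per group; red marks sets that rose, blue sets that fell, grey sets not called, and open circles sets with both group means under 5.49. NFYC has 6 of 7 sets lower and CREB1 4 of 7 higher, while the NFYA, NFYB and CIITA sets are split.

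Whether the probe sets of one gene changed unequally was tested for all 11822 genes with at least 2 of them (limma diffSplice, chosen after the probe set values were seen). This F test takes the probe sets as separate readings, although they share an array. Of the 6 regulators with several sets, it called 5 at an adjusted p under 0.05: NFYA (3.11e-06), CREB1 (1.6e-05), NFYC (0.0017), NFYB (0.0103) and CIITA (0.0425). RFX5 missed it (0.0518). Over all genes 28% were called. Sets under 5.49 entered this test, all 4 of CIITA among them. Which transcript each set reads was not analysed here.

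The class II genes themselves changed by up to 3.43. Of the 14 measured among class II chains, HLA-DM, HLA-DO and CD74, 10 rose and HLA-DOB fell, with a median of 1.35, beside 18.4% higher and 15.7% lower among all genes. HLA-DRA gave 8.50, 8.34 and 8.30 with DMSO and 11.68, 11.73 and 11.76 with MI-389, a rise of 3.34 (SE 0.06, adjusted p = 4.89e-10). No array of one group came near the other. HLA-DMA, which edits the bound peptide, rose by 3.43 with its DMSO mean under 5.49, HLA-DPA1 by 3.42 and the invariant chain CD74 by 1.61.

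Among the genes whose promoter stretches are printed above, HLA-DRB1 rose by 2.98 and HLA-DPB1 by 0.44. HLA-DPB1 changed by 1.33 in the mean of its probe sets and by 0.19, not called, with spike-in centring. HLA-DOB, whose stretch holds both capitals, fell by 0.23 (adjusted p = 0.02) with both groups under 5.49. Its call was lost without DMSO replicate 1, DMSO replicate 3 or MI-389 replicate 1 (adjusted p 0.0577, 0.0807 and 0.0732). HLA-DQA1, also under 5.49, changed by 0.00 (95% interval -0.13 to 0.13), but by 0.37 in its probe set of largest spread (adjusted p = 0.00171) and by -0.25 with the centring (adjusted p = 0.0118). Class II chain probe sets are near copies that can read each other's transcripts. With probe sets of suffix _x_at, _s_at or _a_at taken last, HLA-DRA changed by 0.03 and was not called. The set then read was dimmer than the brightest, and its level is not given here. The representing probe sets of the RFX and NF-Y subunits, in the same arrays, changed by -0.70 to 0.06, and every CIITA signal was under 5.49. With spike-in centring the list counted 8 higher and 4 lower, against 1397 higher and 11056 lower of all 18239 genes.

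**Figure D4:**
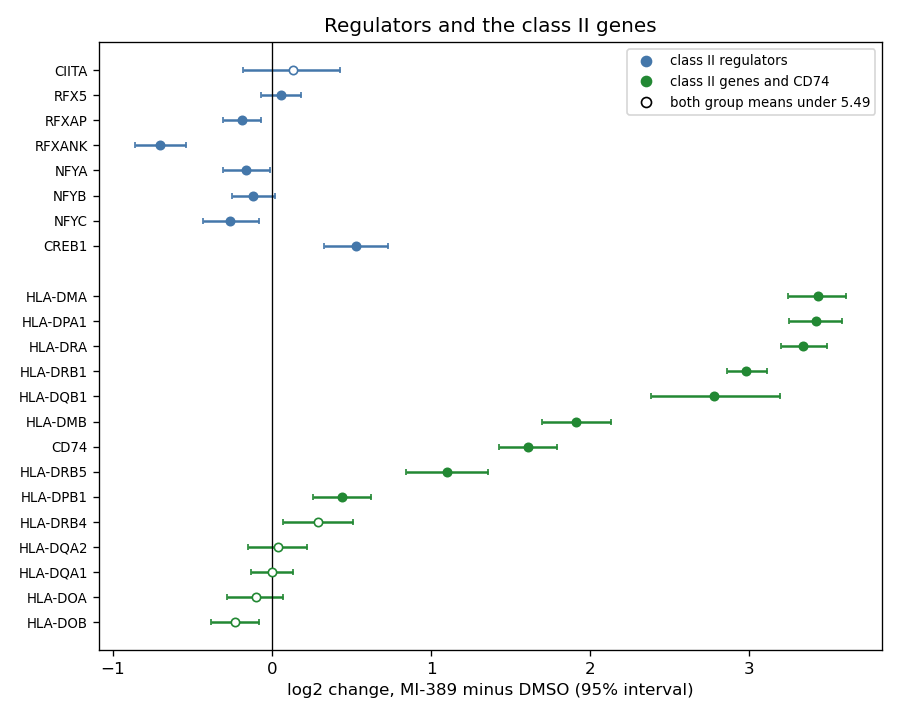
Log2 change, MI-389 minus DMSO, with its 95% interval (n = 3 arrays per group) for the 8 regulators (blue) and 14 class II genes, CD74 among them (green); open circles have both group means under 5.49. The regulators lie between -0.70 and 0.53, and HLA-DMA, HLA-DPA1 and HLA-DRA above 3.

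Genes known to switch CIITA on or off moved in both directions: 6 of 16 measured rose and 8 fell, with a median of -0.17, and 4 were higher and 9 lower with spike-in centring. This and each list below stand beside 18.4% of all genes higher, 15.7% lower and 34.1% called in all. Counts under the centring stand instead beside 1397 higher and 11056 lower of 18239 genes. PRDM1, a repressor of CIITA in plasma cells, rose by 1.45 from a DMSO mean under 5.49. A dimmer PRDM1 probe set of plain suffix _at changed by -0.03 and was not called. JAK2, a kinase of the interferon gamma receptor, rose by 0.67, and IRF8, a myeloid interferon regulatory factor, by 0.63. SOCS1, a brake on that receptor, fell by 0.99 and TGFB1, a cytokine that lowers CIITA, by 0.95. SPI1, the myeloid factor PU.1, fell by 0.66, and SOCS1 and SPI1 had both group means under 5.49. Without DMSO replicate 1, SPI1 changed by -0.42 (adjusted p = 0.00152).

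Among 19 cofactors that CIITA recruits or meets, 6 rose and 2 fell, with a median of 0.12, which turned to 2 higher and 8 lower with spike-in centring. NCOA1, a steroid receptor coactivator, rose by 0.99, the acetyltransferase KAT2B by 0.60 and CREBBP, the CREB binding protein, by 0.40. CREBBP lost its call with the centring (0.15, adjusted p = 0.154). CDK9, the elongation kinase, changed by -0.55 and the deacetylase SIRT1 by -0.38, and both fell.

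The relatives of the members showed no common direction. Of the 7 other RFX family genes RFX1 rose by 0.51, RFX8 fell by 0.89 and RFX2 by 0.32, and 4 were not called (median -0.02, and 1 higher with 4 lower under the centring). Of 15 genes of the CREB and ATF1 family and their coactivators 3 rose and 6 fell (median -0.04). The protein kinase A subunits PRKACA and PRKACB, which phosphorylate CREB1, rose by 0.73 and 0.61. PRKACA changed by -0.08 in a dimmer probe set of plain suffix _at. The coactivator CRTC1 rose by 0.19, and this turned to -0.07 with the centring and lost its call when any single array but DMSO replicate 1 was left out (adjusted p 0.0637 to 0.192). CREB5 fell by 1.36, CRTC3 by 0.60 and CREM, which includes repressor forms, by 0.51 with both groups under 5.49. With the centring the list had 2 higher and 10 lower.

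Of 4 histone-fold relatives of NFYB and NFYC, POLE3 rose by 0.62, DRAP1 fell by 0.29 and DR1 by 0.28 (median -0.18). In dimmer probe sets of plain suffix _at POLE3 changed by -0.02 and DR1 by -0.17, neither called. Class I genes carry the same kind of module, read by NLRC5 in place of CIITA. Of 7 measured genes, NLRC5, B2M and 5 HLA genes, 5 rose, NLRC5 among them, and HLA-E fell by 0.23, with a median of 0.50 (4 higher and 1 lower under the centring); the fall was lost without DMSO replicate 2 (adjusted p = 0.052). NLRC5 went from 7.45 ± 0.04 to 8.43 ± 0.05 (SD, n = 3 each), a rise of 0.98, HLA-F rose by 1.87 and HLA-C by 0.75. HLA-F changed by 0.22 in a dimmer probe set of plain suffix _at (adjusted p = 0.0683). NLRC5 was above 5.49 in both groups and CIITA under it, and the difference between their changes was not tested.

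Likeness of pattern was measured as the root mean square distance of log2 profiles over the 6 arrays after centring each gene on its mean, among 18238 other genes. The nearest to RFXANK were KCNN4 (0.0254), PRR11 (0.0359) and DUS3L (0.0405), and to CREB1 NT5DC3 (0.0414), H2BC8 (0.0426) and TP53INP1 (0.047). RFXAP lay nearest to RTRAF (0.00602), AEBP2 and PLEKHO1, and NFYC to NHLRC4 (0.028), ZUP1 and PSKH1. For CIITA the nearest were NDRG2 (0.0542), KRT6C and DHRS2. Its profile here is that of its brightest set, not called, with overlapping groups and both means under 5.49. Nearness to it therefore rests largely on scatter between arrays. DHRS2 and H2BC8 also had both group means under 5.49. With 2 groups of 3 many genes share a profile: 1256 genes correlated with RFXANK at r of at least 0.95, 889 with RFXAP, 421 with CREB1 and 84 with NFYC, against 48 with CIITA.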

How the data were processed

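The authors deposited 1 log2 value per probe set and array. The submitters' processing notes name RMA and limma; their settings, versions and roles are not stated there. Array medians lay between 4.47 and 4.49. Of 49386 probe sets 93 controls were left out. Probe sets were named by the platform annotation, and gene IDs gave current symbols from the RefSeq table of GRCh38.p14: 45253 probe sets had 1 gene (45172 matched by ID), 1327 several and 2713 none. No member had a probe set shared with another gene in that annotation. Each gene was represented by its probe set of highest mean. MI-389 was compared with DMSO by limma 3.58.1 in R 4.3.3 (lmFit, eBayes, two-sided), adjusted by Benjamini-Hochberg over all probe sets or all 18239 genes, with a threshold of 0.05; "rose" and "fell" mean past it. The test was also run on simulated data with independent noise for each array, which cannot show whether the replicates here are technical. Named genes were the 8 members, up to 3 rising and 3 falling genes of each list, and the 3 nearest profiles; marker genes, CD74 and the genes of the printed promoters were added with values known. Members and lists were chosen with earlier results of these data known. Alternatives concerned scaling, dim features, variance, threshold, probe set choice and single arrays. No sequencing depth applies; the number of arrays limits precision.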

Additional observations from a re-analysis of the deposited data

How the results depend on the processing

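RFXANK lower and CREB1 higher kept direction and gene call under every alternative run, at -0.95 to -0.62 and 0.28 to 0.70, although the brightest CREB1 probe set lost its call over all probe sets against a fold of 1.2 (adjusted p = 0.0613). RFXANK has only 1 probe set, so the alternatives of probe set choice could not alter its change. All 7 CREB1 probe sets end in _a_at or _x_at, so taking such suffixes last returned the same _x_at set, at 0.53. No CREB1 set of plain suffix _at was there to compare. Its highest change, 0.70, came with the set of largest spread. Counts of 1 higher and 3 lower regulator genes became 3 higher with the mean of all probe sets. The higher count was 3 with probe sets of suffix _x_at, _s_at or _a_at taken last, and 4 with the probe set of largest spread. Spread was taken over all 6 arrays, treatment difference included, so that choice favours sets that changed. Calls gained through it, here and below, are no separate evidence of a change. The lower count was 6 after centring on the spike-ins, 1 at an adjusted p of 0.01, 1 against a fold of 1.2 (limma treat), and 1 to 3 with single arrays left out. Probe set counts of 7 higher and 10 lower became 3 and 19 with the spike-in centring and 1 and 4 with treat. Over all genes, 1397 were higher and 11056 lower with that centring and 1282 and 1175 with treat, against 3352 and 2862. Over all probe sets these counts were 2901 and 30190, and 2591 and 2755, against 6877 and 6923.

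CIITA gained a call with the mean of its probe sets (0.18), with those suffixes last (0.51) and with the set of largest spread (0.51). It stood between -0.03 and 0.26 with single arrays left out. RFX5 turned to -0.20 (called) with the spike-in centring and was called at 0.17 with the mean and 0.35 with the largest spread. RFXAP lost its call with quantile normalisation (-0.14), and at -0.19 with the replicate block, the 0.01 threshold and treat; single arrays gave -0.22 to -0.18. NFYA gained a call with the spike-in centring (-0.41), the mean (-0.30) and the largest spread (-0.80). NFYB gained one with the centring (-0.37) and turned to 0.27, called, with suffixes last and with the largest spread. NFYC lost its call at -0.26 with the 0.01 threshold and treat; single arrays gave -0.33 to -0.21. These reversals follow from another probe set or a common shift; other causes were not tested. The diffSplice test without dim probe sets is not given, since a set high in 1 group alone passes that filter through the change tested.

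With the centring, probe sets 11725092_s_at of RFX5 (-0.20), 11758944_at of NFYA (-0.20), 11733066_at of NFYB (-0.24) and 11762173_a_at of NFYC (-0.25) turned lower and CRTC1 to -0.07. With suffixes last PRDM1 (-0.03), PRKACA (-0.08) and POLE3 (-0.02) turned and were not called. HLA-DQA1 was called at 0.16 with the mean of its probe sets and 0.37 with the largest spread. Same-numbered arrays' deviations from their group means correlated at -0.195, 0.0175 and -0.14. The highest correlations with an MI-389 array of another number were 0.145, -0.0036 and 0.205. These values show no strong pairing by number but cannot settle whether samples were paired. The replicate block gave 3046 genes higher and 2679 lower, and among the 8 regulator genes changed the call of RFXAP alone (adjusted p = 0.0538); the NFYC probe set 11754671_s_at also lost its call over all probe sets (adjusted p = 0.0577).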
